A study of Mus musculus with 18 samples.

Results

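The genes described here are 40 S-phase and mitosis genes, chosen by name but with earlier results of these data known, out of 33440 genes to which the deposited transcripts of mouse libraries were assigned. RNA was sequenced in 18 libraries from 2 experiments on the transcription factor IRF3 in adipocytes. In the first, adipocytes were differentiated in culture from the stromal vascular fraction (SVF) of the inguinal fat of C57BL/6 mice that carry the IRF3-2D allele, which the labels write IRF-2D. They received AAV with Cre (FI3OE, n = 3), which switches the allele on, or AAV with GFP (WT, n = 3), so the WT cells hold the same allele unrecombined, and Cre itself is present only in the FI3OE cells. In the second, translating ribosome affinity purification (TRAP) was used to pull RNA on GFP-tagged ribosomes out of epididymal white adipose tissue (eWAT) of WT Ad-NuTRAP mice (n = 6) and of mice that also lack Irf3 in adipocytes (FI3KO, n = 6), all C57BL/6. Both TRAP genotypes carry Adipoq-Cre, which drives the tag in adipocytes, and both had 8 weeks of high-fat diet (HFD) at thermoneutrality. The labels give no age or sex of the mice and do not say how many animals stand behind a culture or a TRAP library.

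Cells copy their genome in S phase and divide it in mitosis. Entry into S phase is driven by cyclin E with its kinase and by E2F transcription factors, which switch on the MCM helicase, the DNA clamp and the enzymes that make deoxynucleotides. Later, FOXM1 and B-MYB raise the mitotic cyclins, kinases, kinetochore proteins and spindle motors. The anaphase-promoting complex (APC/C) removes some of these proteins during and after mitosis. Mature adipocytes are held to be non-dividing, and in fat tissue most cycling cells are precursors, endothelial cells and macrophages.

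Libraries of SVF-derived adipocytes held between 21541334 and 36932452 reads and TRAP libraries between 25259869 and 40490283. Values are read counts scaled to library size by TMM within an experiment (CPM), and p-values come from the quasi-likelihood test of edgeR, adjusted by the Benjamini-Hochberg method over all genes tested, except where DESeq2 or an unadjusted p is named. A gene was called at an adjusted p of at most 0.05. In SVF-derived adipocytes, Irf3 itself was at 95.0 ± 5.73 CPM (FI3OE) against 57.2 ± 0.628 CPM (WT, SD of 3 libraries each, log2 fold change 0.73, SE 0.0464, adjusted p = 3.3e-07). In TRAP it was at 15.8 ± 2.50 CPM (FI3KO) against 20.1 ± 2.14 CPM (WT, SD of 6 libraries each, log2 fold change -0.35, SE 0.106, adjusted p = 0.0198), with overlapping libraries. The labels call the samples biological replicates, and the p-values measure the spread between these libraries. The adipocyte markers were present in every group, but the cultured cells also carried markers of other cells: the summed length-scaled abundance (TPM) of 15 macrophage markers was between 3215 and 3401 in the 6 SVF libraries, against 24.7 to 152 in the 12 TRAP libraries, and that of 10 fibroblast and preadipocyte markers were between 9871 and 10180 against 564 to 1507. In such bulk libraries, fewer cells of a type and less RNA per cell cannot be told apart.

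The promoters of these genes are known for a few short elements. The cell cycle homology region (CHR) and the CCAAT box are typical of G2/M genes, and E2F sites of S-phase genes. RefSeq start sites (GRCm38.p6) were found for 33 of the 40 genes, and the 250 bases before each start were searched on both strands. A CHR match was the letters TTTGAA. The variant written TTCGAA counted too. A CCAAT box match was those letters themselves. An E2F match was TTTGGCGC, TTTCCCGC, TTTCGCGC or TTTGCCGC. The core of an interferon-stimulated response element, the kind of site that IRF3 binds, was GAAA repeated after any 2 bases. E2F matches may overlap each other. CHR letters were present before 10 of 19 mitosis genes (52.6%), before 3 of the other 14 (21.4%) and before 19.6% of 27025 genes of the genome. CCAAT was present before 84.2%, 64.3% and 37.5%, and the E2F letters before 5.26%, 28.6% and 2.16%, respectively. The interferon element's letters were found before 1 gene, Bub1b (3.03% of 33, against 3.46% of all genes). The stretches of 5 genes are printed 5′ to 3′ because the results below turn on these genes, with all matches within the printed bases in capitals. Each stretch is the 200 bases next to the start, or for Ccne1 the 156 bases next to the annotated gene, and so is shorter than the 250 bases searched. Ccne1 (cyclin E1) and Plk1 (polo-like kinase 1) had the largest and the third largest log2 fold change in FI3OE, Mki67 (the proliferation antigen Ki-67) and Top2a (topoisomerase II alpha, which untangles sister chromatids) the largest differences in TRAP, and Mcm6 (a subunit of the replicative helicase) differed in TRAP in the other direction.
Ccne1, chr7:38107535-38107690, minus strand: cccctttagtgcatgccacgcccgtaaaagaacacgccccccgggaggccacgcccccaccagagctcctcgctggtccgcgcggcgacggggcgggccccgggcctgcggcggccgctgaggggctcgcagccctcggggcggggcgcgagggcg
Plk1, chr7:122159235-122159434, plus strand: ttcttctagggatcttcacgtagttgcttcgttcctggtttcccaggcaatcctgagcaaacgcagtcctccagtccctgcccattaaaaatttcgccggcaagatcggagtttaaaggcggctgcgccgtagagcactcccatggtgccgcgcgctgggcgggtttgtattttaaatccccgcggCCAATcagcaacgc
Mki67, chr7:135716380-135716579, minus strand: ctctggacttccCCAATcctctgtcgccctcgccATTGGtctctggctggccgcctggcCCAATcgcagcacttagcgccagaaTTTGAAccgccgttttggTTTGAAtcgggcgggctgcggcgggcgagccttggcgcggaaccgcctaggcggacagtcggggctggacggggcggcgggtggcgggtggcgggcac
Top2a, chr11:99024190-99024389, minus strand: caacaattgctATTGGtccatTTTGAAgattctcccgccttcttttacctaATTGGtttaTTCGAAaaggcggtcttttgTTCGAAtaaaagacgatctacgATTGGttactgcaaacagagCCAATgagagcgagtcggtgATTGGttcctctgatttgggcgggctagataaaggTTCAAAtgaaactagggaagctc
Mcm6, chr1:128359706-128359905, minus strand: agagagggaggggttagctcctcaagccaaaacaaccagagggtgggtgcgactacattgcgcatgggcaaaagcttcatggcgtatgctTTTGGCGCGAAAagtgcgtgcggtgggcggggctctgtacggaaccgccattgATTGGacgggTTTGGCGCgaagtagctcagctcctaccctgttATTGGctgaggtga
The Ccne1 stretch stops where the annotated gene begins and holds none of these letters. Mki67 shows 2 CHR and 3 CCAAT matches, and Top2a 4 and 5, while the 250 bases searched for Top2a hold 6 CCAAT matches. Plk1 shows 1 CCAAT match, and Mcm6 shows 2 CCAAT matches and 3 E2F matches, of which 2 overlap. A match is a description of the letters and not a bound site.

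In SVF-derived adipocytes, 13 of the 23 mitosis members rose in FI3OE and none of them fell (also none by DESeq2 or at an unadjusted p under 0.05), while of 9 licensing and replication fork genes 3 fell and 1 rose. The latter counts were 2 and 1 by DESeq2, with the replicate number as a block, with no filter or with an offset for average transcript length, and in a fit of all 18 libraries Cdc45 alone was called lower. The mitosis count depended on the fit: 4 were called higher with the length offset (17.4%, against 13.7% of all genes), 3 of them among the 13 (Ccnb2, Kif11 and Plk1), and 1, Bub1b, in the fit of all 18 libraries (4.35%, against 5.52%). Of 16105 genes tested, all 40 members among them, 20.2% were called higher and 16.8% lower in FI3OE. Of the 40 members, 19 (47.5%) rose and 4 (10.0%) fell. The changes were small: the median log2 fold change was 0.34 over the members and -0.005 over all genes, and 3 members (Ccne1, Kif2c and Plk1) rose past a log2 fold change of 1, which 1.99% of all genes did. None fell past that size, against 1.63% of all genes, and the count is also 0 at an unadjusted p under 0.05. For 19 members every FI3OE library lay above every WT library (25.7% of all genes), and for 5 every FI3OE library lay below (23.8%). DESeq2 called 16 higher and 3 lower. The count of higher members was 12 without FI3OE replicate 2 and 12 without WT replicate 1, 9 with the length offset (22.5%, against 13.7% of all genes), and 3 in the fit of all 18 libraries (7.5%, against 5.52%). The lower members were 2 with the offset (5%, against 9.9% of all genes) and 1 in that fit (2.5%, against 3.57%), in which 4 of the 23 calls remained (Bub1b, Ccne1, Cdc45 and Rrm1).

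**Figure D1:**
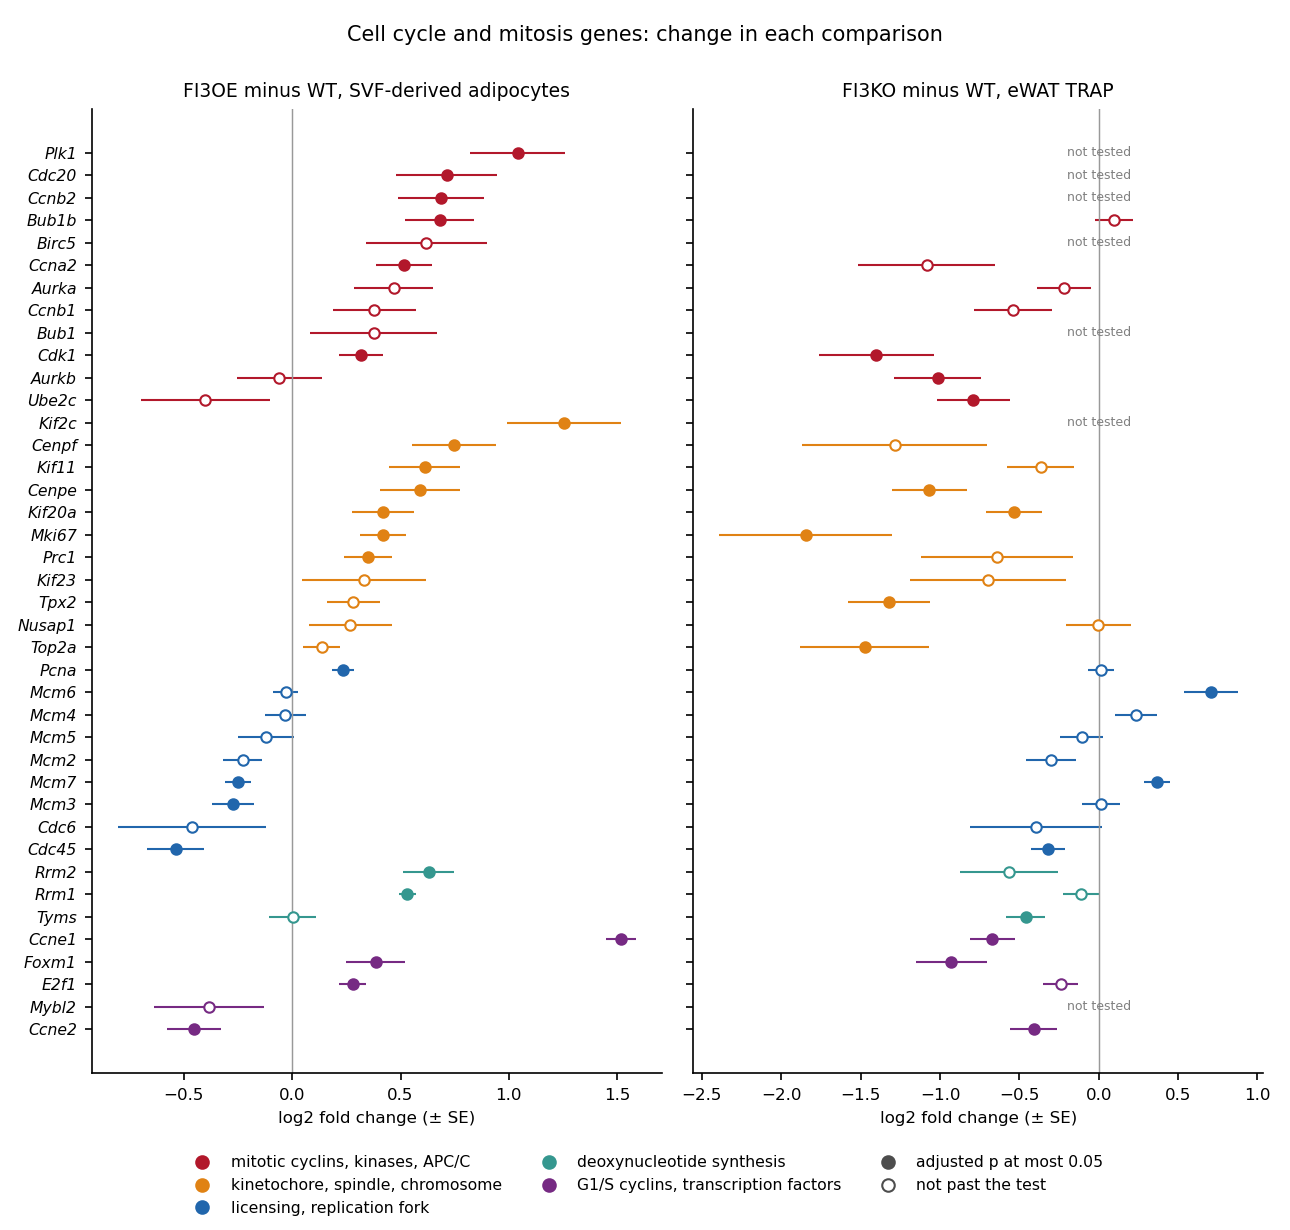
Log2 fold change (x axis, bars show SE) of each of the 40 genes, coloured by role, in FI3OE minus WT SVF-derived adipocytes (left, 3 libraries per group) and FI3KO minus WT TRAP (right, 6 per group). Filled points passed an adjusted p of 0.05: 19 on the right and 4 on the left of 0 in SVF, 2 and 13 in TRAP, where 7 genes had too few reads to test.

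Among G1/S genes, Ccne1, whose product opens S phase with CDK2, changed most. It was at 54.6, 64.9 and 56.3 CPM in the FI3OE libraries and at 20.6, 20.97 and 19.8 CPM in the WT libraries, with every FI3OE library far above every WT library. The means were 58.6 ± 5.56 and 20.5 ± 0.621 CPM (SD of 3 libraries each), and the log2 fold change was 1.52 (SE 0.0683, adjusted p = 1.99e-08). Its relative Ccne2, which has the same role, went the other way, with 3.80, 4.26 and 4.39 CPM in FI3OE and 6.28, 5.23 and 5.59 CPM in WT (log2 fold change -0.45, SE 0.124, adjusted p = 0.0139). The groups did not overlap, but the call lapsed without FI3OE replicate 1 (adjusted p = 0.0511) or WT replicate 1 (adjusted p = 0.0546) and with the length offset (adjusted p = 0.0729), and Ccne2 shares 17.4% of its exon bases with the antisense gene Ints8, whose reads these unstranded libraries cannot separate. E2f1, an activating E2F, rose from 16.4 ± 0.772 to 19.9 ± 0.697 CPM (log2 fold change 0.28, SE 0.0633, adjusted p = 0.0049). Foxm1, a driver of mitotic gene expression, was at 4.99, 4.34 and 3.96 CPM in FI3OE and 3.39, 3.43 and 3.31 CPM in WT, without overlap (log2 fold change 0.39, SE 0.137, adjusted p = 0.0453). The Foxm1 call lapsed on leaving out any library other than FI3OE replicate 3, with an adjusted p between 0.0844 and 0.15, by DESeq2 (0.123), under the replicate block (0.0658), with no filter (0.0642), with protein-coding transcripts only (0.0577) and with the length offset (0.28, adjusted p = 0.469). Mybl2, which encodes B-MYB, had a log2 fold change of -0.38 (adjusted p = 0.269).

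The enzymes of deoxynucleotide synthesis were split. Rrm1, the large subunit of ribonucleotide reductase, was at 76.4, 73.2 and 75.5 CPM in FI3OE and at 51.7, 51.8 and 52.2 CPM in WT, with little spread in either group (log2 fold change 0.53, SE 0.0376, adjusted p = 7.94e-07). Rrm2, the small subunit, which is made in S phase, was at 7.94, 7.56 and 7.88 CPM against 4.58, 5.83 and 4.73 CPM (log2 fold change 0.63, SE 0.118, adjusted p = 0.0014). Both rose without overlap. Tyms, which makes thymidylate, was at 6.41 CPM in both groups (log2 fold change 0.00, SE 0.108, adjusted p = 0.993).

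Of 9 genes of licensing and the replication fork, 1 rose, 3 fell and 5 were not called, with a median log2 fold change of -0.23. Pcna, the sliding clamp of DNA polymerases, rose: it was at 49.2, 53.6 and 52.0 CPM in FI3OE and 41.5, 44.4 and 45.8 CPM in WT (log2 fold change 0.24, SE 0.0505, adjusted p = 0.00345). Mcm7, a helicase subunit, was at 17.5, 18.5 and 17.4 CPM in FI3OE and 21.01, 20.5 and 21.9 CPM in WT (log2 fold change -0.25, SE 0.0591, adjusted p = 0.00622). Cdc45, which activates that helicase, was at 5.28, 4.08 and 5.18 CPM against 7.89, 6.76 and 6.498 CPM (log2 fold change -0.54, SE 0.133, adjusted p = 0.00797). Both fell, with every FI3OE library below every WT library, but Cdc45 did not pass with the length offset (-0.45, adjusted p = 0.0662). Mcm3 was called lower as well (log2 fold change -0.27, SE 0.0966, adjusted p = 0.0441), and this call lapsed without FI3OE replicate 1 or 3 or WT replicate 2 or 3 (adjusted p = 0.07 to 0.195), by DESeq2 (0.0608), under the replicate block (0.0679), with no filter (0.0637) and with the length offset (0.0745). Mcm2 lay below WT in every library at a log2 fold change of -0.23 without passing the test (adjusted p = 0.065), and was called with the length offset (-0.53, adjusted p = 0.0361), with the minimum of 10 counts (0.0495) and without FI3OE replicate 1 (0.0424). Mcm4 and Mcm6 were both at -0.03 and Mcm5 at -0.12, so the subunits of the same hexamer ran from -0.27 to -0.03. Cdc6, a loader of the helicase, was at 0.808 ± 0.347 CPM against 1.11 ± 0.229 CPM (FI3OE against WT, SD, n = 3 each, log2 fold change -0.46, adjusted p = 0.325).

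Among 12 mitotic cyclins, kinases and APC/C genes, 6 rose, none fell and the median log2 fold change was 0.49. DESeq2 called none of the 12 lower either, and neither did an unadjusted p under 0.05. Plk1, a kinase needed at most steps of mitosis, was at 2.03, 2.88 and 2.32 CPM in FI3OE and 1.03, 1.39 and 1.10 CPM in WT (log2 fold change 1.04, SE 0.218, adjusted p = 0.00302), without overlap. Cdk1, the kinase that drives mitosis, was at 10.4, 11.4 and 9.93 CPM against 7.60, 8.70 and 9.14 CPM (log2 fold change 0.32, SE 0.102, adjusted p = 0.0297). The Cdk1 call lapsed without FI3OE replicate 1 or 2 or WT replicate 1 or 2 (adjusted p = 0.0519 to 0.112), and with the length offset, where the log2 fold change was 0.19 (adjusted p = 0.268). Its partners Ccna2 (log2 fold change 0.52, adjusted p = 0.00899) and Ccnb2 (0.69, adjusted p = 0.0187) rose, though DESeq2 did not call Ccnb2. Ccnb1 was at 3.93, 5.50 and 3.63 CPM against 2.72, 3.33 and 3.94 CPM with overlapping groups (log2 fold change 0.38, SE 0.191, adjusted p = 0.147). Bub1b, a checkpoint protein that holds anaphase back (0.68, adjusted p = 0.00582), and Cdc20, the APC/C activator that releases it (0.71, adjusted p = 0.0316), rose as well. Aurka, Birc5 and Bub1 had log2 fold changes of 0.47, 0.62 and 0.38, Aurkb of -0.06 and Ube2c of -0.40, and none of these passed.

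All 11 kinetochore, spindle and chromosome genes had a positive log2 fold change and 7 rose, with a median of 0.42. Kif2c, a kinesin that takes microtubules apart at centromeres, was at 2.92, 1.91 and 1.85 CPM in FI3OE and 0.826, 0.787 and 1.14 CPM in WT (log2 fold change 1.25, SE 0.263, adjusted p = 0.00298). Its log2 fold change was 0.76 with the length offset (adjusted p = 0.0873). Mki67, the usual marker of cycling cells, was at 13.3, 13.4 and 11.0 CPM in FI3OE and 9.70, 8.33 and 10.1 CPM in WT (log2 fold change 0.42, SE 0.107, adjusted p = 0.00958). With the length offset it was at 0.65 and did not pass (adjusted p = 0.0575). Top2a was at 15.5, 16.9 and 14.3 CPM against 13.0, 15.0 and 14.5 CPM, and the groups overlapped (log2 fold change 0.14, SE 0.0837, adjusted p = 0.234). Cenpf (0.75), Cenpe (0.59), the motors Kif11 (0.61) and Kif20a (0.42) and the midzone bundler Prc1 (0.35) rose with an adjusted p between 0.0106 and 0.0387. The Kif20a call lapsed by DESeq2, under the replicate block and with the length offset, and Kif20a shares 29.3% of its exon bases with the antisense gene Cdc23. Tpx2 (0.28, adjusted p = 0.0959), Kif23 (0.33) and Nusap1 (0.27) did not pass.

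**Figure D2:**
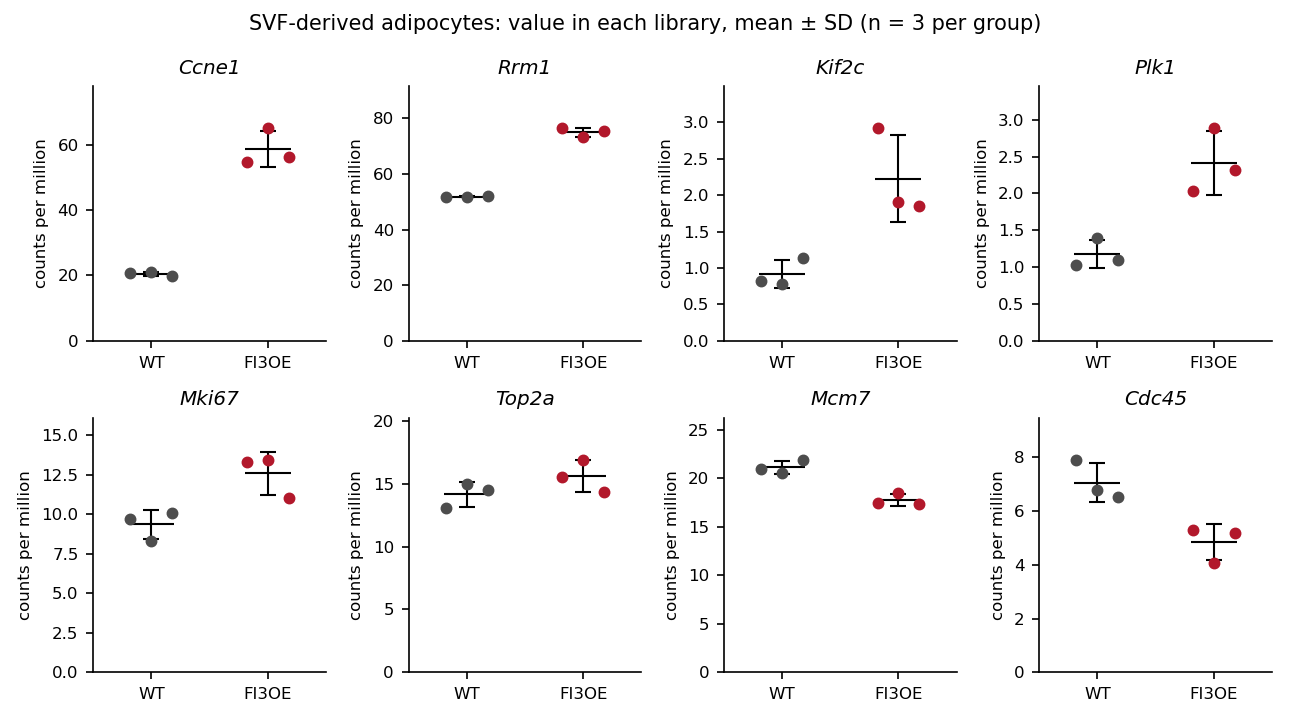
CPM (y axis, from 0) of 8 genes in each library of WT and FI3OE SVF-derived adipocytes. Points are libraries, and bars show mean ± SD of 3. Ccne1, Rrm1, Kif2c, Plk1 and Mki67 libraries of FI3OE lie above all WT libraries, Mcm7 and Cdc45 libraries lie below, and Top2a libraries overlap.

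The wider pathway was read from lists of other genes. Of 49 other mitosis genes, 10 rose and 2 fell, with a median log2 fold change of 0.18. That share of higher genes is close to the 20.2% of all genes, and that of lower genes is under the 16.8%. Those that fell were Cdc25b (-0.60) and Hjurp (-0.18), and the largest changes were those of Ckap2l (1.13), Kif14 (1.12) and Ckap2 (1.08), which encode spindle and cytokinesis proteins. Of 32 other replication genes, 2 rose and 4 fell (median -0.09), among them Orc1 (-0.68) and the licensing factor Cdt1 (-0.50), while the clamp loader Rfc3 was at 0.41. Among 16 G1 cyclins, kinases and E2F genes, Ccnd2 (cyclin D2) rose from 632 ± 20.01 to 996 ± 33.4 CPM (SD, n = 3 each, log2 fold change 0.66, SE 0.038, adjusted p = 1.51e-07), with Ccnd3 at 0.37 and Tfdp2 at -0.43. Of these 16, 3 rose and 2 fell. Among 15 CDK inhibitors and pocket proteins, 5 rose and 3 fell. Cdkn1a, which encodes the CDK inhibitor p21, rose from 220 ± 2.35 to 523 ± 16.5 CPM (log2 fold change 1.25, SE 0.0367, adjusted p = 1.2e-09), and Cdkn2b (0.64) and Cdkn2c (0.56) rose too. Among those that fell, Cdkn1b (p27) went from 50.3 ± 0.590 to 39.3 ± 1.18 CPM (log2 fold change -0.36, adjusted p = 5.06e-05). The median log2 fold change was 0.02 over these 15 genes and 0.04 over the 16 G1 genes. Of markers of other cells, the macrophage sum was at 3350 to 3353 TPM in FI3OE and 3215 to 3401 TPM in WT, and 4 of its 13 tested genes rose and 3 fell. The fibroblast sum was at 9871 to 10140 against 9975 to 10180 TPM. Their part in the result was not tested.

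In TRAP, most members that changed were lower in FI3KO than in WT, and 2 helicase subunits were higher. Of 13624 genes tested, 19.1% were called higher and 18.3% lower in FI3KO. Of the 40 members 33 had enough reads, and of these 2 (6.06%) rose and 13 (39.4%) fell. The median log2 fold change was -0.46 over the 33 and 0.02 over all genes. Past a log2 fold change of 1, 6 members fell (4.87% of all genes) and none rose (1.74% of all genes, with a member count of 0 at an unadjusted p under 0.05 as well). The groups overlapped for most: 3 members lay below in every FI3KO library (8.53% of all genes) and 1 lay above (7.47%). DESeq2 also called 2 higher and 13 lower, and the count of lower members was 8 with the replicate number as a block (24.2%, against 13.7% of all genes), where 2 were higher (6.06%, against 13%). The 7 members left out for low counts were Ccnb2, Cdc20, Bub1, Plk1, Birc5, Kif2c and Mybl2. Their medians were at most 5.5 reads per library in FI3KO and between 5.5 and 10 in WT, with a highest library of 24 reads (Birc5 in WT). Bub1 had 0 to 2 reads in FI3KO and 1 to 9 in WT, and these 7 were not tested in the fit used here. With no filter, Bub1 was called lower (-2.63, adjusted p = 0.0209) and the other 6 were not (adjusted p = 0.0629 to 0.858). In a fit of all 18 libraries, whose filter keeps all 40 members, Bub1 (-2.65, adjusted p = 0.00304) and Ccnb2 (-2.25, adjusted p = 0.0112) were lower, and in all 18 members were lower (45%, against 18.6% of all genes) and 2 higher (5%, against 17.1%).

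Mki67 was at 0.175 CPM in the lowest, 0.364 at the median and 1.23 in the highest FI3KO library, and at 0.668, 2.23 and 3.37 CPM in WT. The highest FI3KO libraries, replicates 1 and 2, were above the lowest WT libraries, which were also replicates 1 and 2. The log2 fold change was -1.85 (SE 0.545, adjusted p = 0.0181), at -1.99 with an adjusted p of 0.0905 under the replicate block and at -1.46 with 0.181 under the length offset. Top2a ran from 0.557 over a median of 0.749 to 1.996 CPM in FI3KO and from 0.929 over 3.36 to 3.75 CPM in WT (log2 fold change -1.48, SE 0.405, adjusted p = 0.0126, or 0.0785 with the replicate block). Tpx2, which activates Aurora A on the spindle, was the mitosis gene with no overlap, at 0.252, 0.546 and 0.665 CPM (lowest, median and highest) in FI3KO and 0.876, 1.27 and 1.67 CPM in WT (log2 fold change -1.32, SE 0.259, adjusted p = 0.00209). Cenpe, a kinetochore motor, was at 1.399 to 1.76 CPM in FI3KO and 1.51 to 4.82 CPM in WT (log2 fold change -1.07, SE 0.238, adjusted p = 0.00424). Kif20a was the other member of its group that fell (-0.53, adjusted p = 0.0289), but it shares 29.3% of its exon bases with the antisense gene Cdc23. Cenpf, Kif11, Kif23 and Prc1 had log2 fold changes between -1.29 and -0.37 and did not pass, nor did Nusap1, whose value was next to 0 (adjusted p = 0.99).

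Of 7 mitotic cyclins, kinases and APC/C genes tested, 3 fell and none rose, with a median log2 fold change of -0.79. Cdk1 was at 0.110, 0.205 and 0.520 CPM (lowest, median and highest) in FI3KO and 0.400, 0.765 and 0.926 CPM in WT (log2 fold change -1.402, SE 0.362, adjusted p = 0.00929), with 1 FI3KO library level with the lowest WT library and 1 above it. With the length offset, Cdk1 was at -0.64 (adjusted p = 0.302). Aurkb (-1.02, adjusted p = 0.0122) and the APC/C ubiquitin carrier Ube2c (-0.79, adjusted p = 0.0171) fell as well, although 22.8% of the exon bases of Ube2c lie across from Tnnc2. The Aurkb call lapsed under the replicate block. Ccna2 (-1.08, adjusted p = 0.0628) and Ccnb1 (-0.54, SE 0.246, adjusted p = 0.0995, or 0.0437 with protein-coding transcripts only) did not pass, and Bub1b was at 0.10 (adjusted p = 0.551). DESeq2 and an unadjusted p under 0.05 also called none of the 7 higher.

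Of the 4 G1/S genes tested, 3 fell. Ccne1 was at 3.07, 4.13 and 4.79 CPM (lowest, median and highest) in FI3KO and 5.15, 6.45 and 7.42 CPM in WT, with no overlap of the 12 libraries (log2 fold change -0.67, SE 0.142, adjusted p = 0.00331). Foxm1 was at 0.425, 0.609 and 0.682 CPM against 0.668, 1.15 and 1.405 CPM, and only the edges of the groups overlapped (log2 fold change -0.93, SE 0.222, adjusted p = 0.00625, or 0.0979 with the length offset). Ccne2 fell by 0.41 on the log2 scale (adjusted p = 0.0419). E2f1 had a log2 fold change of -0.24 (SE 0.113, adjusted p = 0.109) and was called lower without FI3KO replicate 1 (-0.31, adjusted p = 0.0449), in the fit of all 18 libraries (0.049) and in replicates 3 to 6 only (0.0414). Of the deoxynucleotide enzymes Tyms fell without overlap (-0.46, SE 0.124, adjusted p = 0.0116), though its call lapsed under the replicate block. Rrm2 (-0.57, SE 0.308, adjusted p = 0.165) and Rrm1 (-0.11) did not pass. Rrm2 was called with the length offset (-1.15, adjusted p = 0.0427).

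The licensing genes did not share this direction. Mcm6 was at 5.79, 7.29 and 8.19 CPM (lowest, median and highest) in FI3KO and 2.53, 4.54 and 5.68 CPM in WT, with every FI3KO library above every WT library (log2 fold change 0.71, SE 0.168, adjusted p = 0.00619). Mcm7 was at 12.9, 15.3 and 18.2 CPM against 11.3, 12.0 and 12.9 CPM, and 1 library of each group met at the edge (log2 fold change 0.37, SE 0.0822, adjusted p = 0.00445). These 2 rose. Cdc45 fell (-0.32, adjusted p = 0.0341), a call lost with the length offset and under the replicate block, and the other 6 were not called. Among them Mcm4 was at 0.23 (adjusted p = 0.183), Mcm2 at -0.30 (adjusted p = 0.154, or -0.49 and 0.0209 with the length offset), Mcm3 at 0.02 and Pcna at 0.01 (SE 0.0818, adjusted p = 0.91), and the sign of Pcna turned under several settings. Subunits of the same helicase hexamer thus ran from -0.30 to 0.71.

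**Figure D3:**
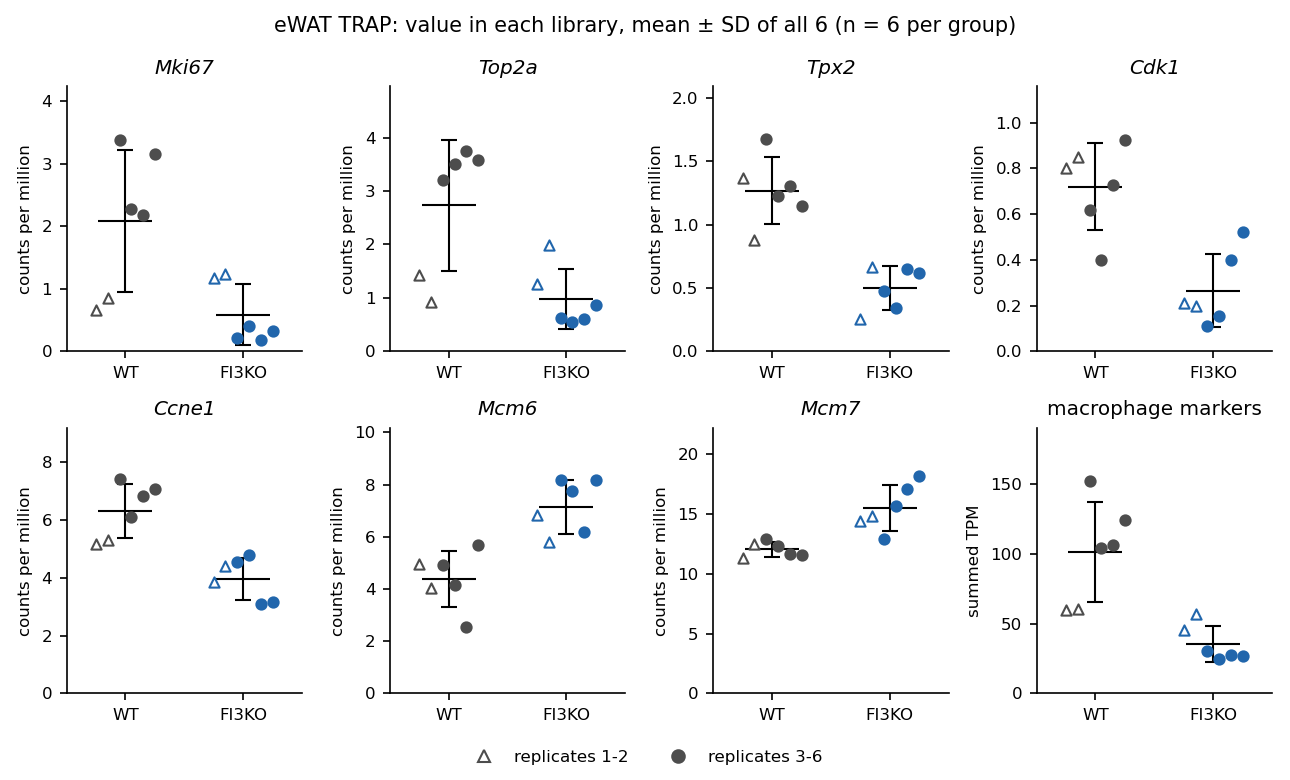
CPM (y axis, from 0) of 7 genes in each WT and FI3KO TRAP library, and the summed TPM of 15 macrophage markers in the same libraries. Open triangles are replicates 1 and 2, filled circles replicates 3 to 6, and bars show mean ± SD of all 6. Mki67, Top2a and the macrophage sum are closer between the genotypes in replicates 1 and 2 than in 3 to 6, while Ccne1 and Mcm6 keep their order in both. Markers of other cells, not plotted, also differed between the sets.

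Among the wider lists in TRAP, to be read against 18.3% of all genes lower and 19.1% higher, 14 of 35 other mitosis genes tested fell and 4 rose, led by Iqgap3 (-2.12), Ckap2 (-1.91) and the cohesin protector Sgo2a (-1.82). Of 28 other replication genes, 4 fell and 4 rose, led by Dut (0.78), Mcm10 (-0.70) and Lig1 (0.51). Of 14 G1 genes, 3 fell and 2 rose, with E2f2 at -1.10, Ccnd2 at -0.40 and Cdk4 at 0.36. Of 15 CDK inhibitors and pocket proteins, 3 fell and 2 rose: Cdkn1a fell from 229 ± 79.9 to 79.7 ± 21.97 CPM (SD, n = 6 each, log2 fold change -1.52, SE 0.25, adjusted p = 0.000747), while Cdkn1b, which encodes p27, was at 0.73 and Cdkn2d at 0.52. Macrophage markers moved with the genotype. Of 15 macrophage markers 12 were tested, 10 fell and 1 rose, their summed level was 24.7 to 56.6 TPM in FI3KO and 59.8 to 152 TPM in WT, and Fcgr1 and Cx3cr1 had at most 3 reads in every FI3KO library, while none of the 15 was without a read in the group. The pericyte and smooth muscle sum was at 295 to 571 TPM against 722 to 1101 TPM, with 2 of 6 genes lower. Of 9 fibroblast markers tested 2 fell and 1 rose, and none of 7 endothelial markers (17.3 to 93.3 against 23.0 to 45.0 TPM) or 5 mesothelial markers was called by edgeR, with 1 of these 12, Kdr, at an unadjusted p under 0.05 (log2 fold change 0.84, adjusted p = 0.0995). Of 9 T and B lymphocyte markers only Trac had enough reads, and it fell (-1.47, adjusted p = 0.00645), with the list's sum at 1.08 to 3.65 against 2.62 to 6.36 TPM. The adipocyte sum was at 43610 to 50540 against 45370 to 52630 TPM. The part of these cells in the result was not tested.

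The TRAP libraries were also compared within replicates 1 and 2 and within replicates 3 to 6, a split that the labels do not name as a batch and that earlier work on these data had pointed out. The split is plainer in FI3KO than in WT. By the chi-square per degree of freedom of the reads of 2 libraries over genes, FI3KO libraries of different sets were 114 to 274 apart, against 35.96 between replicates 1 and 2 and 15.9 to 85.2 within 3 to 6, where 3 and 4 (15.9) and 5 and 6 (17.0) were the close pairs. In WT, libraries of different sets were 76.3 to 134 apart, but replicates 3 and 5 of the same set were 130.1 apart. WT replicates 1 and 2 were 2.43 apart, closer than any pair of SVF cultures of a group (3.81 to 7.73). The labels do not say whether close TRAP libraries share animals. If they do, the p-values in TRAP would be too small. In replicates 1 and 2, 6.04% of all genes were called between FI3KO and WT, and of the 33 members none was. At an unadjusted p under 0.05 there were 2 (Cdk1 with a log2 fold change of -1.996, SE 0.637, adjusted p = 0.0771, and Tpx2 at -1.24, SE 0.45, adjusted p = 0.104), and DESeq2 called 0. Without FI3KO replicate 2, 2 were called, Tpx2 (-2.14) and Kif20a (-1.12), but FI3KO is then 1 library in that set, assumed to vary like the other groups. In replicates 3 to 6, 18 members fell (54.5%, against 25.3% of all genes) and 3 rose (9.09%, against 26.6%). Past a log2 fold change of 1, 12 fell, against 9.25% of all genes. For 16 members every FI3KO library of replicates 3 to 6 lay below every WT library (22.8% of all genes), and for 1 every library lay above (23.7%). The 3 that rose were Mcm6 (0.80), Mcm4 (0.43) and Mcm7 (0.40), of which Mcm4 did not pass with the length offset (0.35, adjusted p = 0.206).

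Mki67 and Top2a had the lowest adjusted p for a difference between the sets. In replicates 1 and 2, Mki67 was at 1.17 and 1.23 CPM in FI3KO and 0.668 and 0.849 CPM in WT (log2 fold change 0.66, SE 0.36, adjusted p = 0.25). In replicates 3 to 6 it was at 0.219, 0.402, 0.175 and 0.325 CPM in FI3KO and 3.37, 2.28, 2.18 and 3.16 CPM in WT (log2 fold change -3.29, SE 0.278, adjusted p = 1.29e-06). FI3KO libraries were thus higher in the first set and lower in the second, and WT libraries the reverse. The difference between the sets' log2 fold changes was -3.95 (SE 0.46, adjusted p = 0.00011). With the length offset it was -3.87 and did not pass (adjusted p = 0.0587). Top2a was at 1.26 and 1.996 CPM against 1.44 and 0.929 CPM in replicates 1 and 2 (log2 fold change 0.48, SE 0.3, adjusted p = 0.31), with the genotypes overlapping. In replicates 3 to 6 it was at 0.620, 0.557, 0.5997 and 0.877 CPM in FI3KO and 3.20, 3.51, 3.75 and 3.58 CPM in WT (log2 fold change -2.40, SE 0.218, adjusted p = 2.37e-06). The difference was -2.88 (SE 0.373, adjusted p = 0.000208).

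The difference between the sets was called for 8 members, all with the lower FI3KO effect in replicates 3 to 6 (24.2%, against 13.7% of all genes), and for none in the other direction (12.8% of all genes). In that direction, an unadjusted p under 0.05 gave 1 (Mcm4, 0.62, adjusted p = 0.0621, called with no filter and without FI3KO replicate 3 or 4 or WT replicate 4, with an adjusted p from 0.0326 to 0.049), and DESeq2 called 8 members in all. Beside Mki67 and Top2a they were Cenpf (-3.67, adjusted p = 0.00164), Kif23 (-2.59, adjusted p = 0.0103), Prc1 (-2.52, adjusted p = 0.0324), Ccna2 (-2.41, adjusted p = 0.0201), Ube2c (-1.16, adjusted p = 0.0346) and Cenpe (-1.005, adjusted p = 0.0295). Of these 8, 6 are kinetochore, spindle and chromosome genes and 2 belong to the mitotic cyclins, kinases and APC/C. Several rest on few reads. In FI3KO replicates 3 to 6, Cenpf had 2, 5, 1 and 3 reads and Kif23 had 5, 6, 4 and 5. Ccna2 had 6, 4, 11 and 6 there, and Prc1 had 2, 5, 12 and 18. Ccna2 and Prc1 also share 12.5% and 11.1% of their exon bases with antisense genes. The call of Ccna2 lapsed without FI3KO replicate 1 or WT replicate 2 and with the length offset (-1.64, adjusted p = 0.198), and that of Kif23 without FI3KO replicate 2 or WT replicate 1. The count was 5 without FI3KO replicate 1, without FI3KO replicate 2 or without WT replicate 1, and 4 without WT replicate 2. Each of these leaves 1 library of a genotype in replicates 1 and 2, which is assumed to vary like the other groups, as it is in the lapses of Ccna2 and Kif23. It was 3 with a minimum of 10 counts in every library, where 23 members remained, 3 with the length offset (9.09%, against 9.61% of all genes) and 5 with protein-coding transcripts only. Mki67, Cenpf, Kif23, Prc1 and Ccna2 had too few reads for the minimum of 10 counts and were not tested with it. The calls that stayed with the offset were those of Top2a, Cenpf and Kif23.

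The difference between the sets did not pass the test for Tpx2 (-0.11, SE 0.551), Ccne1 (-0.48, SE 0.262), Foxm1 (-0.81, SE 0.391), Mcm7 (0.10, SE 0.17), Mcm6 (0.31, SE 0.346), E2f1 (-0.08, SE 0.154), Rrm2 (-0.34, SE 0.624), Ccnb1 (-0.32, SE 0.519), Mcm2 (-0.24, SE 0.274), Pcna (0.12, SE 0.123), Nusap1 (0.59, SE 0.406) and Cdk1 (0.87, SE 0.774), with an adjusted p between 0.148 and 0.905. Differences of the size of these SEs could not be told from 0. In replicates 3 to 6, Ccne1 (-0.82, adjusted p = 0.000615), Foxm1 (-1.17, adjusted p = 0.00077), Cdk1 (-1.13, adjusted p = 0.0401) and E2f1 (-0.27, adjusted p = 0.0236) fell. In a fit of these 8 libraries alone the adjusted p of Cdk1 was 0.0672, and its call also lapsed without FI3KO replicate 3 or 4 or any WT replicate other than 4 (adjusted p = 0.0545 to 0.125), with no filter (0.0671) and with the length offset, where its log2 fold change was -0.44 (adjusted p = 0.546). That of E2f1 lapsed without FI3KO replicate 4 or 6 or WT replicate 6 (adjusted p = 0.0527 to 0.0788) and with no filter (0.0875), and Ccnb1 was called without WT replicate 5 (-0.82, adjusted p = 0.0286). Mcm2 (-0.37, adjusted p = 0.0646), Ccnb1 (-0.64, adjusted p = 0.0877), Rrm2 (-0.67, adjusted p = 0.115), Nusap1 (0.19) and Pcna (0.05, adjusted p = 0.577) did not pass there. Mcm2 was called by DESeq2 (adjusted p = 0.0494), with the minimum of 10 counts (0.0425), with the length offset (-0.47, 0.0377) and without FI3KO replicate 4 (-0.51, 0.0104). In replicates 1 and 2, the log2 fold changes of those named but not called were 0.49 for Mcm6, 0.30 for Mcm7, 1.05 for Prc1, -0.34 for Ccne1, -0.47 for Kif20a, -0.30 for Cdc45, -0.36 for Foxm1, -0.32 for both Ccnb1 and Rrm2, -0.19 for E2f1, -0.13 for Mcm2 and -0.07 for Pcna.

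**Figure D4:**
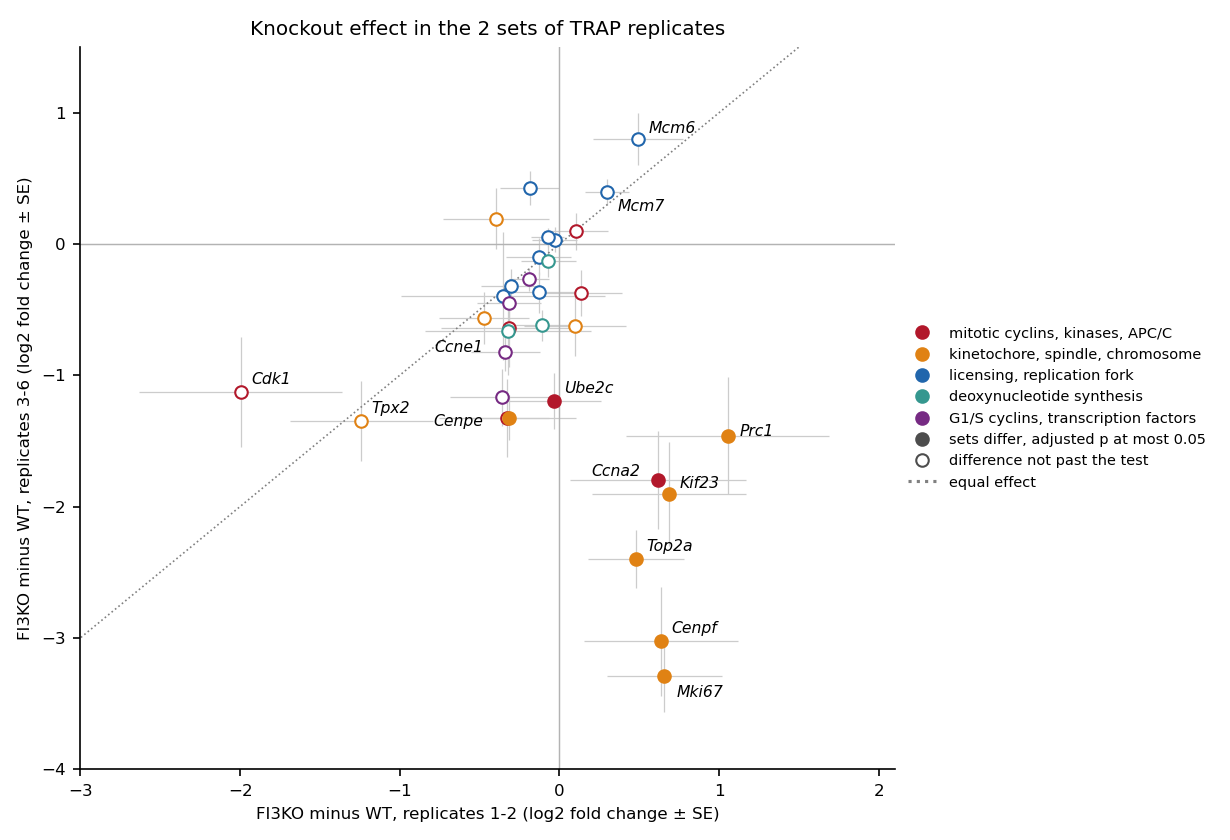
Log2 fold change FI3KO minus WT of 33 genes in TRAP replicates 1 and 2 (x axis) and in replicates 3 to 6 (y axis), with SE, coloured by role. Filled points are the 8 genes whose effect differed between the sets, 6 of which lie to the right of 0 in replicates 1 and 2, and all lie well below the dotted line of equal effect, while Mcm6, Mcm7, Tpx2 and Ccne1 lie near it.

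Summed per role, the kinetochore, spindle and chromosome genes were at 6.84 to 8.19 TPM in FI3KO and 6.53 to 7.28 TPM in WT of replicates 1 and 2, and at 3.83 to 5.12 against 11.9 to 12.8 TPM in replicates 3 to 6. The licensing genes were at 73.6 to 73.8 against 78.2 to 79.9 TPM and at 85.2 to 91.2 against 81.4 to 91.6 TPM. Of 35 other mitosis genes, 14 had a lower effect and 1 a higher effect in replicates 3 to 6, against 13.7% and 12.8% of all genes, led by Aspm (-4.38), Iqgap3 (-3.84) and Ncapg (-3.80). In replicates 3 to 6, where 25.3% of all genes were lower and 26.6% higher, 19 fell and 4 rose, led by Iqgap3 (-3.65), Aspm (-3.52) and Kif15 (-3.16), and in replicates 1 and 2 Sgo2a alone was called (-1.02). Among other replication genes, Rfc2 (0.48) and Orc6 (0.39) rose in replicates 1 and 2, and Dut (1.08), Mcm10 (-0.98) and Tk1 (-0.89) led the 4 that rose and 8 that fell of 28 in 3 to 6. The effect differed between the sets for Tk1 (-1.76), Dut (0.84) and Rfc2 (-0.59). Among G1 genes, E2f2 (-1.81), Cdk6 (-1.4) and Ccnd1 (-1.03) fell in 3 to 6, where 5 of 14 fell and 5 rose, to be read against the same shares, and Cdk4 rose in both sets (0.34 and 0.37). The effect differed for 4 of these 14, led by Cdk6 (-2.27), E2f2 (-2.20) and Ccnd1 (-1.99). Of 15 CDK inhibitors and pocket proteins, 6 rose and 4 fell in 3 to 6, led by Cdkn1a (-2.05), Cdkn1b (1.03) and Cdkn2a (-0.91), and in replicates 1 and 2 Cdkn1c alone was called (-0.58). The effect in 3 to 6 was higher for 5 and lower for 3, led by Cdkn2a (-1.92), Cdkn1a (-1.75) and Cdkn2b (-1.05), while Cdkn1b was at 0.99. Cdkn1a was at -0.29 in replicates 1 and 2 (adjusted p = 0.243) and fell by 2.05 on the log2 scale in replicates 3 to 6, a difference of -1.75 (adjusted p = 8.33e-05).

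The adipocyte sum was at 43610 to 46130 TPM in FI3KO and 52410 to 52630 TPM in WT of replicates 1 and 2. It overlapped in 3 to 6 (47130 to 50540 against 45370 to 50910 TPM), with a higher effect there for 4 of 10 genes and a lower one for 1. Markers of other cells also differed between the sets, though not all lists in the same way. The macrophage sum was at 45.7 to 56.6 TPM in FI3KO and 59.8 to 60.5 TPM in WT of replicates 1 and 2, and at 24.7 to 30.5 against 104 to 152 TPM in replicates 3 to 6. Over the 12 macrophage markers tested, the log2 fold change had a median of 0.35 in the first set and -2.40 in the second, and the effect was lower in 3 to 6 for 11 of 12. The fibroblast sum was at 820 to 881 against 806 to 812 TPM in replicates 1 and 2 and at 564 to 866 against 1032 to 1507 TPM in 3 to 6, and 6 of 9 genes had a lower effect in 3 to 6 and 1 a higher one. The endothelial sum was at 71.4 to 93.3 TPM in FI3KO against 35.2 to 39.1 TPM in WT in replicates 1 and 2, and overlapped in 3 to 6 (17.3 to 38.4 against 23.0 to 45.0 TPM), with a lower effect in 3 to 6 for 4 of 7 genes. The pericyte sum was lower in FI3KO in both sets, at 546 to 571 against 722 to 733 TPM and at 295 to 378 against 850 to 1101 TPM, with a lower effect in 3 to 6 for 4 of 6 genes. In replicates 1 and 2 this sum ran against most of its genes. There 5 of the 6 had a positive log2 fold change and 1 a negative one (median 0.63), and none was called by edgeR. In 3 to 6 all 6 were negative (median -1.36). The T and B lymphocyte sum was at 3.57 to 3.65 TPM in FI3KO against 2.62 TPM in both WT libraries of replicates 1 and 2, and at 1.08 to 2.08 against 3.55 to 6.36 TPM in 3 to 6, so that FI3KO was higher in the first set and lower in the second. Its tested gene, Trac, had a lower effect in 3 to 6 (-1.72, adjusted p = 0.0449). Their part in the result was not tested.

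Levels of these genes in the WT groups were compared per length, in TPM. Pcna was highest in both, at a mean of 57.8 TPM in WT SVF-derived adipocytes and 40.4 TPM in WT TRAP. In SVF it was followed by Mcm7 (23.5), Ccne1 (22.1), Rrm1 (21.1), Mcm6 (15.8), Cdk1 (15.3) and E2f1 (13.9 TPM), and in TRAP by E2f1 (12.4), Mcm7 (11.8), Tyms (10.9), Cdc45 (9.38) and Ccne1 (7.37 TPM). The lowest in SVF were Cenpf (0.544), Cenpe (0.664) and Bub1 (0.668 TPM), and in TRAP Bub1 (0.122), Cenpf (0.210) and Kif2c (0.234 TPM). The 3 lowest were thus mitosis genes in both groups. Cdk1 stood in place 6 in SVF and in place 22 in TRAP (1.15 TPM). The spread of neighbours in this order often overlapped, as the plot of WT levels shows.

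Most members were higher in WT SVF-derived adipocytes than in WT TRAP. Of 16454 genes tested with all 40 members, 42.1% were called higher and 38.1% lower in SVF, and of the members 27 (67.5%) were higher and 3 (7.5%) lower. Past a log2 difference of 1 there were 18 higher (29.5% of all genes) and 1 lower (17.4%), and the median log2 difference was 0.86 over the members and 0.07 over all genes. The 27 and the 3 were also the numbers without overlap between the groups (40.8% and 36.3% of all genes). The members left out of the TRAP test for low counts passed the filter here with their SVF reads. Of these, Bub1, Ccnb2, Cdc20, Kif2c, Mybl2 and Plk1 are among the 27, so the filter favoured their direction. Plk1, for example, had 25 to 30 reads per library in WT SVF and 2 to 7 in WT TRAP. Inguinal depot, culture, diet, the IRF3-2D allele and RNA isolation all differ between these groups and cannot be told apart, and the macrophage and fibroblast sums given above were also higher in SVF.

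By median log2 difference, the deoxynucleotide enzymes (1.91) and the mitotic cyclins, kinases and APC/C (1.57) stood highest. The latter list includes Birc5, Bub1, Ccnb2, Cdc20 and Plk1, which passed the filter with their SVF reads. In CPM scaled over these 9 libraries, Rrm1 was at 42.2 ± 0.141 in SVF (SD, n = 3) and 11.2 ± 1.16 in TRAP (SD, n = 6), a log2 difference of 1.91 (SE 0.0849, adjusted p = 8.85e-09). Cdk1 was at 6.90 ± 0.631 against 0.814 ± 0.214 CPM (3.08, SE 0.213, adjusted p = 2.67e-07) and Rrm2 at 4.11 ± 0.553 against 0.543 ± 0.149 CPM (2.91, SE 0.234, adjusted p = 8.65e-07). None of these overlapped. Prc1 (3.11, adjusted p = 4.18e-06), Mcm6 (1.99, adjusted p = 2.86e-06), Top2a (1.90, adjusted p = 0.000532), Mki67 (1.69, adjusted p = 0.0033), Foxm1 (1.14, adjusted p = 0.00088), Ccnb1 (0.77, adjusted p = 0.0131) and Mcm2 (0.62, adjusted p = 0.00318) were higher in SVF as well. With the length offset Mki67 was at 0.88 (adjusted p = 0.112), and the Ccnb1 call lapsed without WT SVF replicate 3. By contrast, Ube2c (-1.28, adjusted p = 0.0012), Cdc45 (-0.76, adjusted p = 0.000257) and Bub1b (-0.67, adjusted p = 0.00125) were lower in SVF in CPM, while the TPM of Bub1b was 1.82 in SVF and 1.63 in TRAP. Pcna (0.06, SE 0.0827, adjusted p = 0.516), E2f1 (-0.19, SE 0.11, adjusted p = 0.136) and Cenpe (-0.79, SE 0.342, adjusted p = 0.0533) did not pass. Cenpe was called lower in SVF by DESeq2 (adjusted p = 0.0414), in the fit of all 18 libraries (0.0127), with no filter (0.0462), with the length offset (-1.96, 0.0165) and without WT TRAP replicate 1 (0.0363) or 2 (0.00795). Pcna was called higher with the minimum of 10 counts (0.24, adjusted p = 0.0214) and with protein-coding transcripts only (0.21, adjusted p = 0.0446), and E2f1 lower without WT TRAP replicate 5 (-0.24, adjusted p = 0.0399). With the length offset the calls of Bub1b (-0.31, adjusted p = 0.311) and Ccnb1 (0.48, adjusted p = 0.224) were lost.

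**Figure D5:**
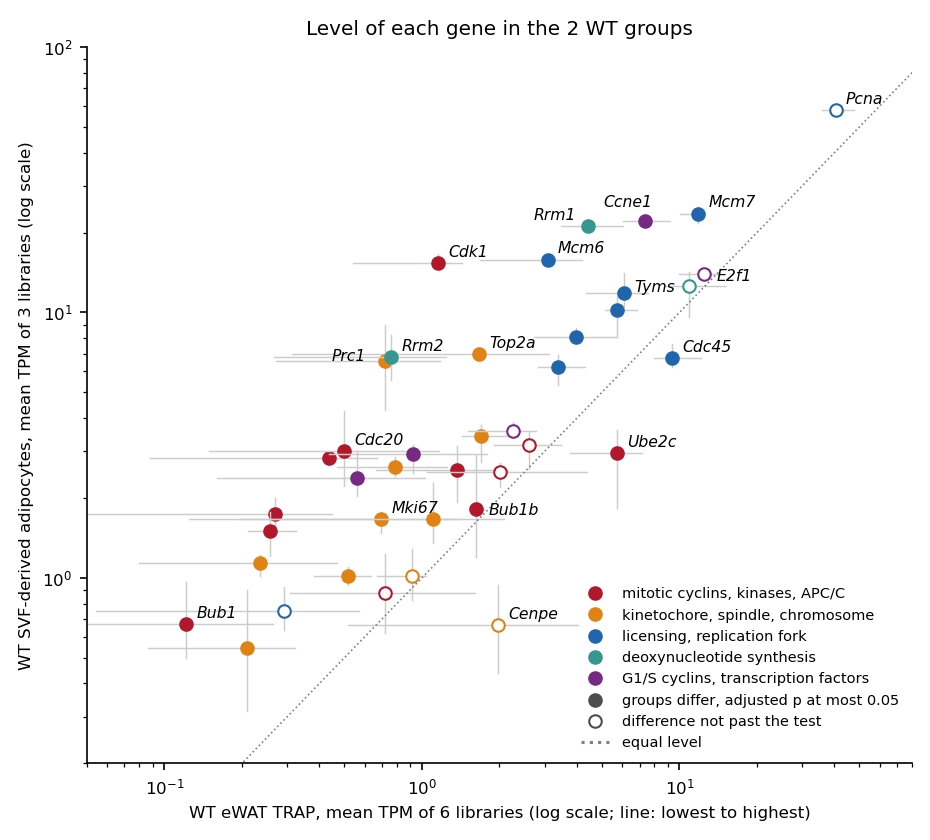
Mean TPM of the 40 genes in WT TRAP (x axis, 6 libraries) and WT SVF-derived adipocytes (y axis, 3 libraries), both on log scales, with grey lines from the lowest to the highest library, cut off at the edge of the plot where a gene was near 0. Most points lie above the dotted line of equal level, with Cdk1, Prc1 and Rrm2 farthest from it, and Cdc45, Ube2c and Cenpe lie below. Filled points passed the test on counts, which is scaled otherwise than TPM.

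In the wider lists, to be read against 42.1% of all genes higher in SVF and 38.1% lower, 27 of 48 other mitosis genes were higher in SVF and 7 lower, led by Ckap2l (3.56), Pbk (3.28) and Nek2 (-3.13). Of 32 other replication genes 16 were higher and 9 lower, led by Chaf1b (4.00), Pole2 (3.27) and Clspn (2.44). The D-type cyclins differed in opposite directions: Ccnd1 was at 91.0 ± 3.32 CPM in SVF and 1.78 ± 0.777 CPM in TRAP (log2 difference 5.70, SE 0.252, adjusted p = 8.68e-09), while Ccnd2 was at 514 ± 15.3 against 1502 ± 90.7 CPM (-1.55, SE 0.0731, adjusted p = 1.45e-08). Of 16 G1 genes 10 were higher and 5 lower, with E2f8 at 2.72 and Cdk6 at 2.38. Of 15 CDK inhibitors and pocket proteins 6 were higher and 8 lower, led by Cdkn2a (3.00), Cdkn1b (1.96) and Cdkn1c (1.56).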

How the data were processed

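RNA-seq was analysed in 18 mouse libraries. The authors trimmed reads with fastp and quantified transcripts with Salmon 1.4.0 against GRCm38 (processing notes), and the deposited values used here are expected counts (estimated counts per transcript, not normalized). The deposited TPM, which the authors' Salmon run scaled for transcript length and depth, served only for levels between genes. Libraries were made with Ribo-Zero and Nextera XT and carry no strand. Over 5% of exon bases were shared with another gene for 8 members, and antisense reads there could not be separated. They were Kif20a (29.3%), Ube2c (22.8%), Ccne2 (17.4%), Ccna2 (12.5%), Prc1 (11.1%), Mcm7 (7.25%), Plk1 (7.09%) and Cdc45 (5.96%). Of 118733 transcripts, 117850 were matched to genes by GENCODE identifiers and expected counts were summed per gene and rounded. Unmatched transcripts took 0.375 to 1.08% of reads and stayed as genes of their own.

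Genes were kept by filterByExpr, scaled by TMM and tested with edgeR 4.0.16 (R 4.3.3) in quasi-likelihood fits, with Benjamini-Hochberg adjustment over all genes tested. FI3OE was compared with WT over the 6 SVF libraries, FI3KO with WT over the 12 TRAP libraries, the same within replicates 1 and 2 and within 3 to 6 in 1 fit with an interaction term, and WT SVF with WT TRAP. Calls needed an adjusted p of at most 0.05, and a log2 cutoff of 1 where stated. Scripts were tested on simulated data. Depth limits genes of a few reads, for which a read count's own error is large.

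The members and lists were chosen with earlier results of these data known. Named in each comparison are Mki67, Top2a, Ccnb1, Cdk1, Mcm2, Pcna, Rrm2, E2f1, Foxm1, the 5 members of lowest adjusted p in each direction and each untested member, and of each other cell cycle list the 3 largest called changes. Other members named were chosen after their values were seen. Alternatives were a minimum of 10 counts in every library, no filter, the log2 cutoff, leaving out rRNA-like and mitochondrial genes, each library left out, all 18 libraries or only those of the set in 1 fit, DESeq2 1.42.0 or its size factors, a replicate block and an offset for transcript length. Protein-coding transcripts only and TRAP replicates 3 to 6 only were added after seeing the data. Promoter sequences came from RefSeq.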

Additional observations from a re-analysis of the deposited data

Results flagged for a closer look

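In 6 of 66 groups of 6 TRAP libraries that were checked (33 members in FI3KO and WT), 1 library stood apart from the other 5 by Dixon's criterion, and chance flags about 1 in 20 groups, or 3.3 of 66. Ccna2 was highest in FI3KO replicate 1, at 0.5455 CPM against 0.1237 to 0.2749 CPM in the others. In FI3KO replicate 2, Kif20a was highest at 2.462 CPM (others 1.175 to 1.578 CPM), as was Kif23 at 0.9646 CPM (others 0.09995 to 0.4196 CPM). Kif20a was also highest in WT replicate 2, at 2.787 CPM (others 2.106 to 2.342 CPM). Mcm5 was lowest in FI3KO replicate 1, at 2.559 CPM (others 3.465 to 3.898 CPM), and Cdc6 in WT replicate 3, at 0.1174 CPM (others 0.447 to 0.6105 CPM). The difference of the FI3KO effect between replicates 3 to 6 and replicates 1 and 2 passed the interaction test of edgeR for 8 members: Mki67 (-3.95), Cenpf (-3.67), Top2a (-2.88), Kif23 (-2.59), Prc1 (-2.52), Ccna2 (-2.41), Ube2c (-1.16) and Cenpe (-1.0, all log2). Cenpf, Kif23, Prc1 and Ccna2 had few reads, as given above. Most called markers of macrophages, fibroblasts, pericytes, endothelial cells and lymphocytes also had a lower FI3KO effect in replicates 3 to 6, as given above. The part of any of these cells was not tested.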

How the results depend on the processing

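Of 96 log2 fold changes of named members, 86 kept their sign under every alternative run and 10 did not. In SVF-derived adipocytes, the 19 higher and 4 lower members became 3 and 0 with the log2 cutoff of 1, 9 and 2 with the length offset, and 3 and 1 in a fit of all 18 libraries. Leaving out 1 library gave 12 to 18 higher (12 without FI3OE replicate 2 or WT replicate 1) and 3 to 4 lower. In TRAP, the 2 higher and 13 lower became 0 and 6 with the log2 cutoff, 2 and 10 to 14 on leaving out 1 library, and 2 and 18 of 40 in the fit of all 18 libraries. With a replicate block there were 17 higher and 3 lower in SVF and 2 higher and 8 lower in TRAP. Same-numbered libraries did not deviate together (correlations -0.046 to 0.015 in SVF and -0.293 to 0.104 in TRAP, where values below 0 are deviations in opposite directions), so the numbers were not taken to pair the libraries. In TRAP the deviations were taken from the mean of a whole genotype and so include the split between the sets. There the check cannot show whether same-numbered libraries are paired. In replicates 1 and 2, 0 to 2 members were called (2 without FI3KO replicate 2, which leaves 1 library of that genotype, assumed to vary like the others). In replicates 3 to 6, the 21 called became 12 with the log2 cutoff and 18 to 22 on leaving out 1 library. The 8 differences between sets became 3 with the minimum of 10 counts, where fewer members could be tested, 3 with the length offset, 5 with protein-coding transcripts only, and 4 to 9 on leaving out 1 library (4 without WT replicate 2, 5 without WT replicate 1 or FI3KO replicate 1 or 2). Between the WT groups, the 27 higher were 25 to 29 and the 3 lower were 3 to 4 on leaving out 1 library, and 1 was lower with the log2 cutoff.

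None of the signs that turned belongs to a called value. Pcna in TRAP (0.014) was at -0.003 with the minimum of 10 counts, at -0.012 with the length offset, and at -0.018 to 0.067 on leaving out 1 library. In replicates 1 and 2, where Foxm1 was at -0.362, Rrm2 at -0.324 and Ccnb1 at -0.317, Ccnb1 (0.155) and Foxm1 (0.025) turned with the length offset and Mcm2 (0.015) with protein-coding transcripts only. Leaving out 1 library gave -0.864 to 0.033 for Ccnb1 and -1.023 to 0.072 for Rrm2. Of the differences between sets (Rrm2 -0.342, Ccnb1 -0.325), Mcm2 (0.067) and E2f1 (0.033) turned with the length offset, and leaving out 1 library gave -0.678 to 0.218 for Ccnb1 and -0.741 to 0.352 for Rrm2. E2f1 between the WT groups was at 0.006 with protein-coding transcripts only. Apart from the log2 cutoff and the settings that leave fewer genes or samples, the cause of these changes was not tested.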
